A study of Mus musculus with 106 samples.

Results

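The genes described are 7 subunits of the GABA-A receptor, *Gabra2*, *Gabra3*, *Gabra4*, *Gabra5*, *Gabra6*, *Gabrb2* and *Gabrd*, taken as a list by gene name and given for every cell population and total RNA sample of the series. They are 7 of 55141 genes that could be matched to a symbol, and all 7 had enough counts to be tested in every comparison. GABA-A receptors are the chloride channels through which most fast inhibition in the brain is carried. Each receptor is a ring of subunits from several families, in which alpha and beta subunits form the GABA binding sites. A gamma subunit usually goes with receptors at synapses, whereas the delta subunit goes with receptors outside synapses that answer to ambient GABA, with alpha6 as a partner in cerebellar granule cells and alpha4 in several forebrain neurons.

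The study isolated ribosome-bound mRNA of genetically marked neurons by RiboTag immunoprecipitation (IP) from frozen cerebrum without olfactory bulb and from cerebellum, with total RNA of homogenates as input. HD mice were heterozygous Hdh Q7/Q200 knock-ins and control mice were Hdh Q7/Q7, all on a 129S4 background and 9 months of age, without treatment. All mice carried 1 floxed Rpl22-HA (RiboTag) allele and a Cre driver, which was vGluT2-IRES-Cre, Gad2-IRES-Cre, PV-IRES-Cre or an SST Cre line that the study's methods do not describe. The series holds 106 libraries of 45 mice, 67 of IPs and 39 of total RNA. Cerebral IPs came from 6 control and 6 HD Gad2 mice, 6 and 5 PV mice, 5 and 4 SST mice, and 6 and 6 vGluT2 mice. Cerebellar IPs came from 6 control and 6 HD Gad2 mice and from 5 and 6 vGluT2 mice. Total RNA came from 13 control and 12 HD cerebra (3 or 4 per line and genotype) and from 7 and 7 cerebella (3 per genotype of the Gad2 line, 4 of the vGluT2 line). Control SST IPs came from mice BR10, BR17, Z56, Z57 and Z59, and HD SST IPs from BR12, BR13, BR14 and BR15. Mouse ID series and genotype thus differed in part together in that line, and what the series stand for is not in the labels. Summed counts per library ran from 21905238 to 107753596, and group medians from 29017536 in HD cerebellar total RNA of the Gad2 line to 45464404 in that of the vGluT2 line. A Cre driver marks every cell that expresses it in the dissected tissue, so the cerebral Gad2+ and vGluT2+ IPs pool neurons of several regions.

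Levels are TMM-scaled CPM, and a level is compared between genes only per kilobase of exon. Marker lists were summed per library and are given as lowest, median and highest. The 3 GABAergic markers (*Gad1*, *Gad2* and *Slc32a1*, *Gad1* the most abundant) summed to 2271, 2851 and 3051 CPM in control cerebral Gad2+ IPs, 2251, 2684 and 2948 in PV+ IPs and 2318, 2995 and 3585 in cerebellar Gad2+ IPs, against 533, 638 and 731 in control cerebral total RNA. In control SST+ IPs they summed to 1077, 1408 and 1764, and in cerebral and cerebellar vGluT2+ IPs to 51.3, 77.0 and 120.3 and 145, 170.0 and 256. The 4 PV markers summed to 1656, 1877 and 2108 in control PV+ IPs (*Syt2* the most abundant) and the 3 SST markers to 1067, 1934 and 1943 in control SST+ IPs (*Sst* the most abundant), above cerebral total RNA of controls (357, 424 and 508 and 150.3, 258 and 487). The labels of these 4 GABAergic populations were thus matched by their markers. The 6 granule cell markers, with *Cbln3* the most abundant, summed to 8290.3, 11090.5 and 11612 in control cerebellar vGluT2+ IPs against 863, 1211 and 1629 in cerebellar Gad2+ IPs. In the latter the 5 Purkinje cell markers (*Itpr1* the most abundant) summed to 15831, 19094 and 20229. The vGluT2 gene itself, *Slc17a6*, stood at 42.0, 121 and 155 CPM in control cerebral vGluT2+ IPs and 18.2, 47.6 and 119 in control total RNA. It was as high in control PV+ (80.0, 123 and 145) and SST+ IPs (77.9, 119.7 and 130.1), so that this gene did not set the cerebral vGluT2+ IPs apart, whereas their GABAergic markers were below every total RNA library. No defining marker was at 0 in its own population.

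Some libraries stood apart in markers of cells outside their label. HD PV+ replicate 3 had 214 CPM of *Cbln3* and 66.0 of *Fat2*, and control PV+ replicate 2 had 92.9 and 15.0. Both genes mark cerebellar granule cells, and the summed 6 markers, most of them *Slc17a7* in cerebral libraries, were 1398 in that HD library against 694, 856, 893 and 908 in the other 4. The same HD library had 4660.4 CPM of the 5 Purkinje cell markers where the other 4 had 617, 589.7, 649 and 752. Its astrocyte markers summed to 1516 where the others had 720.5, 777, 749 and 857. Most of that sum was *Aldoc* (at most 1334.5 in HD PV+ IPs, where *Slc1a3* was at most 96.0). *Aldoc* had a mean of 4829 in control cerebellar Gad2+ IPs, so the sum does not by itself show RNA of astrocytes. Control PV+ replicate 2 had 2039 of the Purkinje cell markers against 1016, 676, 755, 618 and 802. Both libraries were thus high in markers of 2 cerebellar cell types. Control SST+ replicate 6 had 1067 CPM of the 3 SST markers, below the other 4 (1934, 1803, 1939.6 and 1943). HD SST+ replicate 4 had 3014 of them, where replicates 1 to 3 had 1535, 1020 and 1276. Its GABAergic markers summed to 907, against 1389, 1196 and 1325. Among HD SST+ libraries it was also the lowest in *Gabra2*, *Gabra3*, *Gabra4*, *Gabra5* and *Gabrb2*, but not in *Gabra6* or *Gabrd*. In cerebellar vGluT2+ IPs, control replicates 2 and 5 and HD replicate 5 were highest in *Slc17a6* (46.3, 108 and 71.3 CPM, where the other control libraries had 22.3, 22.3 and 24.6). Control replicate 5 and HD replicate 5 also held the thalamic marker *Tcf7l2* (104 and 28.3) and *Nrgn* (211 and 58.5), as did control replicate 4 (61.9 and 84.4) and HD replicate 3 (11.2 and 52.2) of cerebellar total RNA of the vGluT2 line. The thalamus list (3 genes, *Rora* the most abundant) summed to 148, 248, 162, 174 and 249 CPM in control replicates 1 to 5 of these IPs. In the cerebellum this sum does not mark thalamus. Control cerebellar Gad2+ IPs had a mean of 484 CPM of *Rora* with 1.16 of *Tcf7l2*.

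Libraries of the same group also differed in how levels depended on exon length. The slope of log2 CPM on log2 exon length, taken over 8199 genes with a mean log2 CPM above 4, was 0.18, 0.159, 0.075 and 0.174 in the 4 control cerebellar total RNA libraries of the vGluT2 line and -0.136, -0.252, -0.318 and -0.161 in the 4 HD libraries. In the Gad2 line it was -0.078, 0.22 and -0.083 in 3 control and -0.08, -0.224 and 0.193 in 3 HD libraries. Genotypes were thus apart in slope in 1 line and overlapped in the other. *Gabra2* and *Gabrb2* have 7640 and 6360 bases of merged exon, *Gabrd* 2875 and *Gabra6* 2489. In cerebral IPs the slope ran 0.098 to 0.321 in control and 0.081 to 0.334 in HD PV+ libraries, and 0.097 to 0.418 and -0.069 to 0.287 in SST+ libraries, with control SST+ replicate 6 the highest of all libraries. Total RNA ran -0.512 to -0.112 and -0.524 to -0.104 in the PV line and -0.386 to -0.027 and -0.41 to -0.084 in the SST line. Kind of library and slope thus differed together in the PV line, where their parts cannot be told apart. The slope was therefore also used as a covariate, a choice made after the data were seen, and its values are given where they changed a call.

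Each IP was first compared with all total RNA of its region, both genotypes together and genotype in the fit, so that the 4 cerebral comparisons share 25 total RNA libraries and the 2 cerebellar ones 14. A gene passed at an adjusted p of 0.05 or less in edgeR. Of the 7 subunits, cerebral Gad2+ IPs had 3 higher and 2 lower (all genes 68%, of which 34.5% higher and 33.5% lower). PV+ IPs had 4 higher and 1 lower (all genes 76.2%, of which 37.3% higher and 38.9% lower), SST+ IPs 2 higher and 2 lower (all genes 69.7%, of which 33.9% higher and 35.7% lower), and cerebral vGluT2+ IPs 5 higher and 0 lower (all genes 68.5%, of which 34.8% higher and 33.6% lower). In the cerebellum, Gad2+ IPs had 1 higher and 2 lower (all genes 67.4%, of which 34.7% higher and 32.6% lower). Cerebellar vGluT2+ IPs had 3 higher and 3 lower (all genes 68.3%, of which 32.3% higher and 36% lower). IP and total RNA libraries did not overlap at all for 3 subunits in cerebellar Gad2+ IPs (all genes 18.6%), and for 1 each in cerebellar (22.1%) and cerebral (15.4%) vGluT2+ IPs. With the slope as a covariate, cerebral Gad2+, PV+, SST+ and vGluT2+ IPs passed 4 of 7 (all genes 75.6%), 3 of 7 (all genes 66%), 5 of 7 (all genes 49.3%) and 6 of 7 (all genes 71.9%), and cerebellar Gad2+ and vGluT2+ IPs 4 of 7 (all genes 74.7%) and 5 of 7 (all genes 71.3%). With the mouse as a block (all genes 70.9% in PV+, 66% in SST+ and 50.3% in cerebral Gad2+ IPs), 3 more subunits passed, *Gabra6* in PV+ (adjusted p = 0.00183) and *Gabra4* (+0.40, adjusted p = 0.0305) and *Gabrb2* (+1.78, adjusted p = 6.8e-05) in SST+ IPs, and 3 no longer did, *Gabra6* in cerebral Gad2+ (-2.25, adjusted p = 0.0668), *Gabra5* in SST+ (-0.07, adjusted p = 0.554) and *Gabrb2* in cerebral vGluT2+ IPs (adjusted p = 0.114). Most genes passed in these comparisons, and the share of subunits that did was near that of all genes in most of them.

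Control IPs were then compared with each other, in comparisons that share their libraries. Against cerebral Gad2+ IPs, vGluT2+ IPs had 1 higher and 1 lower (all genes 29.8%), PV+ IPs 4 higher and 1 lower (all genes 58%) and SST+ IPs 3 higher and 2 lower (all genes 50.7%). PV+ against SST+ IPs gave 1 higher and 1 lower (all genes 18.2%). Against cerebral vGluT2+ IPs, PV+ IPs had 1 higher and 2 lower (all genes 63.3%) and SST+ IPs 0 higher and 3 lower (all genes 54.4%). Cerebellar vGluT2+ against Gad2+ IPs gave 4 higher and 2 lower (all genes 56.4%). Between cerebellum and cerebrum, all 7 subunits passed in Gad2+ IPs (2 higher and 5 lower in cerebellum, all genes 51.1%) and in vGluT2+ IPs (3 and 4, all genes 63.2%). In total RNA 6 of 7 passed (3 and 3, all genes 58.2%). With the slope as a covariate PV+ IPs passed 2 of 7 (all genes 32%) and SST+ IPs 1 of 7 (all genes 17.1%) against cerebral Gad2+ IPs, and 6 of 7 (all genes 60.9%) and 3 of 7 (all genes 39.6%) against vGluT2+ IPs. PV+ against SST+ IPs passed 3 of 7 (all genes 22.2%), cerebral vGluT2+ against Gad2+ IPs 2 of 7 (all genes 32.7%) and the cerebellar pair 7 of 7 (all genes 60.6%). Between regions it passed 6 of 7 (all genes 46.4%) in Gad2+ IPs, 6 of 7 (all genes 64.9%) in vGluT2+ IPs and 7 of 7 (all genes 55.4%) in total RNA.

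HD and control libraries were compared within each population. In all 6 IPs edgeR passed 0 of the 7 subunits. Shares of all genes are given at the adjusted threshold. Counts of subunits at an unadjusted p under 0.05, here and in tests between populations, thus have no such share beside them. In cerebral Gad2+ IPs 0.0279% of 14342 genes passed, 2 of the 7 subunits had an unadjusted p under 0.05 and DESeq2 passed 0 of them (0.523% of all genes). In PV+ IPs 0.034% of 14713 genes passed, 1 of the 7 subunits had an unadjusted p under 0.05 and DESeq2 passed 0 of them (0.285% of all genes). In SST+ IPs no gene passed at all, so that 0% of 14689 genes passed, 0 of the 7 subunits had an unadjusted p under 0.05 and DESeq2 passed 0 of them (0.0136% of all genes). For cerebral vGluT2+ IPs 0.00697% of 14354 genes passed, 2 of the 7 subunits had an unadjusted p under 0.05 and DESeq2 passed 0 of them (0.174% of all genes). Among cerebellar Gad2+ IPs 0.0142% of 14098 genes passed, 0 of the 7 subunits had an unadjusted p under 0.05 and DESeq2 passed 0 of them (0.156% of all genes). Cerebellar vGluT2+ IPs differed most between genotypes over all genes, where 2.11% of 13487 genes passed, 1 of the 7 subunits had an unadjusted p under 0.05 and DESeq2 passed 0 of them (4.93% of all genes). Total RNA of the cerebrum, with Cre line in the fit, also gave 0 of 7, where 0.645% of 14880 genes passed, 1 of the 7 subunits had an unadjusted p under 0.05 and DESeq2 passed 0 of them (1.43% of all genes). The lowest adjusted p of a subunit in these 7 comparisons was 0.252, in cerebellar vGluT2+ IPs. Of the 8 comparisons only total RNA of the cerebellum had subunits that passed, 3 of 7 and all lower in HD mice, where 24.5% of 14477 genes passed (12.5% lower) and DESeq2 passed 4 of the 7 (34.4% of all genes).

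HD and control libraries overlapped for every subunit in all 8 comparisons, so that 0 of 7 were without overlap in each. Over all genes, those without overlap were few, 0.565% in cerebral Gad2+ IPs (0.153% above and 0.411% below controls), 0.496% in cerebral PV+ IPs (0.143% above and 0.353% below controls) and 0.817% in cerebral SST+ IPs (0.259% above and 0.558% below controls). For the other IPs they made up 0.662% in cerebral vGluT2+ IPs (0.195% above and 0.467% below controls), 0.319% in cerebellar Gad2+ IPs (0.184% above and 0.135% below controls) and 3.6% in cerebellar vGluT2+ IPs (1.55% above and 2.05% below controls). In total RNA they came to 0.0403% in cerebral total RNA (0.00672% above and 0.0336% below controls) and 1.22% in cerebellar total RNA (0.608% above and 0.608% below controls). Split by direction, genes that passed as higher and as lower in HD mice made up 0% and 0.0279% in cerebral Gad2+ IPs, 0% and 0.034% in cerebral PV+ IPs, 0% and 0% in cerebral SST+ IPs and 0% and 0.00697% in cerebral vGluT2+ IPs. For the cerebellar IPs and total RNA the shares were 0.00709% and 0.00709% in cerebellar Gad2+ IPs, 0.919% and 1.19% in cerebellar vGluT2+ IPs, 0.155% and 0.491% in cerebral total RNA and 12% and 12.5% in cerebellar total RNA. Cerebellar total RNA was thus the comparison with most genes apart by test, and cerebellar vGluT2+ IPs the one with most genes apart without overlap.

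In most IPs most subunits lay below 0 in HD mice without passing. The count below 0 was 6 of 7 in cerebral Gad2+, 5 in PV+, 7 in SST+, 6 in cerebral vGluT2+ IPs, and 4 and 7 in Gad2+ and vGluT2+ IPs of the cerebellum, with median log2 fold changes of -0.35, -0.08, -0.12, -0.30, -0.01 and -0.37. In cerebral total RNA 2 of 7 and in cerebellar total RNA 6 of 7 were below 0. Over all genes tested the medians of the 6 IPs were -0.01, 0.00, +0.01, -0.02, 0.00 and -0.01. The 4 tests of a difference in HD effect between populations or regions (cerebellar vGluT2+ minus Gad2+, cerebral Gad2+ minus vGluT2+, and cerebellum minus cerebrum in Gad2+ and in vGluT2+ IPs) passed 0 of 7 subunits each, with 1, 0, 2 and 0 at an unadjusted p under 0.05 and 0 by DESeq2, where 0.107%, 0%, 0% and 0.323% of genes passed. No HD effect on a subunit was thus shown to differ between 2 populations.

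**Figure D1:**
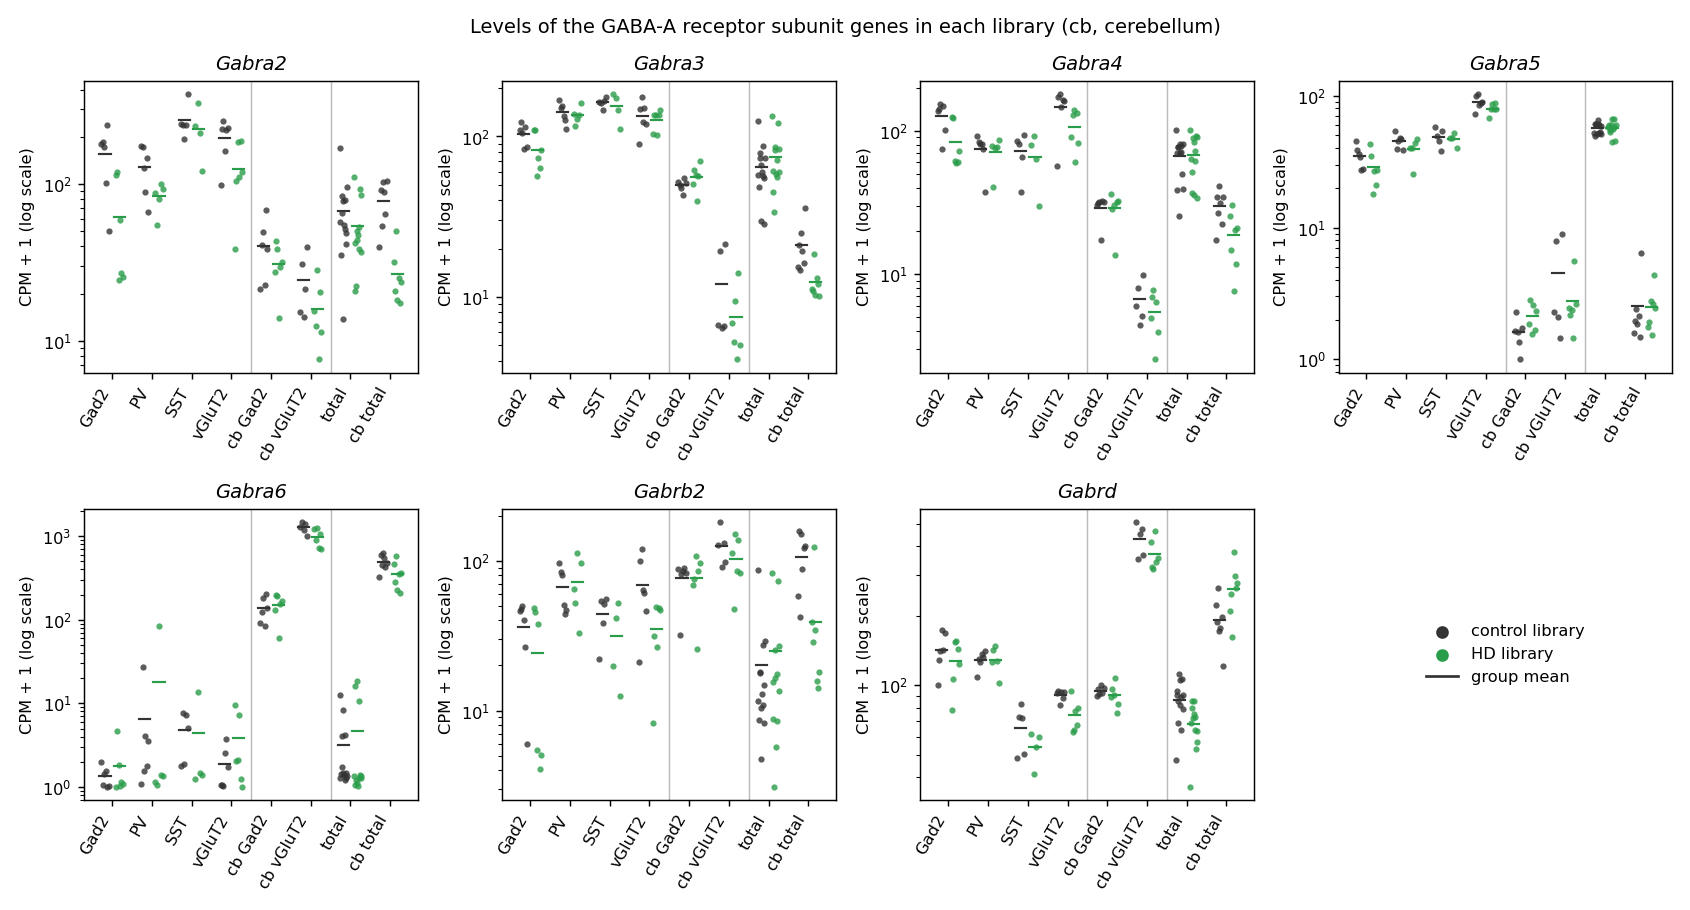
Level of each of the 7 subunits in every library of the 6 IPs and of cerebral and cerebellar total RNA, in CPM plus 1 on a log scale, for control and HD mice. Bars mark group means.

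The alpha subunits form the GABA binding site together with a beta subunit, and they set sensitivity to benzodiazepines. *Gabra2* encodes alpha2, which is known from synapses of forebrain neurons. In control cerebral IPs *Gabra2* stood at 49.2, 175 and 238 CPM in Gad2+ (lowest, median and highest of 6, as for all groups over 5 libraries), 65.0, 136 and 175 in PV+ and 97.6, 223 and 250.4 in vGluT2+ IPs. The 5 SST+ libraries had 242, 238, 193, 236 and 374. SST+ libraries were high, all above the PV+ libraries, and 1 Gad2+ library (replicate 6) was low. In the cerebellum it stood at 20.4, 38.8 and 67.4 in Gad2+ IPs and 14.3, 30.0, 13.2, 20.5 and 38.6 in vGluT2+ IPs. Ordered by mean level (CPM ± SD), *Gabra2* ran cerebral SST+ IPs (257 ± 68.5), cerebral vGluT2+ IPs (197 ± 56.8), cerebral Gad2+ IPs (154 ± 67.5), cerebral PV+ IPs (128 ± 44.8), cerebellar Gad2+ IPs (39.2 ± 17.5), cerebellar vGluT2+ IPs (23.3 ± 10.8), and each overlapped the next.

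Against total RNA, *Gabra2* was higher in SST+ IPs (log2 fold change +2.05 ± 0.26, adjusted p = 2.3e-08), cerebral vGluT2+ IPs (+1.32 ± 0.25, adjusted p = 1.9e-05) and PV+ IPs (+0.81 ± 0.25, adjusted p = 0.00353), with SE after the ± sign. In cerebral Gad2+ IPs it was also higher (+0.67 ± 0.29, adjusted p = 0.0399), a call lost on leaving out any 1 of 6 of the 12 IP libraries (+0.57, adjusted p = 0.0963 without control replicate 5) and with total RNA of the Gad2 line alone (+0.39, adjusted p = 0.521). In cerebellar vGluT2+ IPs *Gabra2* was lower than in total RNA (-1.32 ± 0.27, adjusted p = 1.0e-04). PV+ IPs had less of it than SST+ IPs (-1.01 ± 0.25, adjusted p = 0.0118), where the 6 PV+ and 5 SST+ libraries did not overlap. The cerebellum had less than the cerebrum in Gad2+ (-1.97, adjusted p = 2.2e-04) and vGluT2+ IPs (-3.11, adjusted p = 1.7e-06), but not in total RNA (+0.03, adjusted p = 0.952). With HD libraries in place of controls the Gad2+ difference was -1.01, adjusted p = 0.0671. With the slope as a covariate *Gabra2* still passed against total RNA in SST+ (+0.81, adjusted p = 0.00261) and cerebral vGluT2+ IPs (+0.81, adjusted p = 3.5e-05), but not in PV+ (-0.39, adjusted p = 0.103) or cerebral Gad2+ IPs (+0.34, adjusted p = 0.116). The SST+ value was thus smaller and the PV+ value of opposite sign. *Gabra2* was then lower in cerebellar Gad2+ IPs than in total RNA (-0.62, adjusted p = 3.9e-04), in PV+ than in Gad2+ (-1.69, adjusted p = 0.0130) and vGluT2+ IPs (-1.41, adjusted p = 6.9e-05), in cerebellar vGluT2+ than Gad2+ IPs (-0.89, adjusted p = 0.0258) and in cerebellar than cerebral total RNA (-0.90, adjusted p = 1.5e-05). PV+ against SST+ IPs still passed (-0.85, adjusted p = 0.00597). Without control SST+ replicate 6, the highest in *Gabra2*, the SST+ difference from total RNA was +1.96, adjusted p = 1.5e-07, and PV+ against SST+ IPs gave -0.82, adjusted p = 0.0346.

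In HD mice *Gabra2* had the lowest log2 fold change of the 7 subunits in cerebral Gad2+ IPs, without passing. Its level was 23.3, 42.1 and 118 CPM in HD against 49.2, 175 and 238 in control libraries, with replicates 3, 5 and 6 of HD under every control, and the groups overlapped (log2 fold change -1.37 ± 0.48, unadjusted p = 0.0125, adjusted p = 0.536). The 6 striatal projection neuron markers (*Ppp1r1b* the most abundant, none at 0) summed to 2061, 2852 and 3260.4 CPM in HD and 3350.2, 3763 and 4392 in control libraries of this population, which did not overlap. The exon-length slope of these libraries was -0.098, 0.062, -0.285, -0.125, -0.21 and -0.129 in HD replicates 1 to 6 and -0.104, 0.082, 0.039, -0.1, -0.037 and -0.185 in control replicates 1 to 6. HD replicates 3, 5 and 6 and control replicate 6, low in *Gabra2*, were thus the 4 lowest in slope. With the slope as a covariate *Gabra2* was at -0.96, adjusted p = 0.713. The part of the markers or of the slope in the value of *Gabra2* was not tested further, and in such bulk samples fewer cells of a type and less RNA per cell cannot be told apart. In the other IPs *Gabra2* was at -0.66 (PV+), -0.18 (SST+), -0.66 (cerebral vGluT2+), -0.40 (cerebellar Gad2+) and -0.65 (cerebellar vGluT2+), with adjusted p from 0.392 to 1.0. HD libraries of PV+ IPs had 87.0, 53.6, 79.4, 99.7 and 92.3 CPM against 65.0, 136 and 175 in controls. In SST+ IPs the 4 HD libraries had 234, 329.7, 211 and 120.2, and without the lowest (replicate 4) the value was +0.02. HD and control libraries overlapped in every IP. In cerebral total RNA *Gabra2* did not pass over all lines (-0.34, adjusted p = 0.975, and -0.34, adjusted p = 0.795 with same-numbered libraries of the Gad2 line as pairs). In the Gad2 line alone, chosen after the data were seen, it was at -0.60, adjusted p = 1.0. With its same-numbered libraries as a block it passed as lower (-0.62, adjusted p = 0.0243, 1 of 7 subunits and 0.16% of all genes). That block was chosen from correlations in these same data. The exon-length slope went with the number too (0.158, -0.156 and -0.316 in control and 0.172, -0.184 and -0.313 in HD replicates 1 to 3). Block and slope thus cannot be told apart, and the labels do not make these mice pairs. *Gabra2* levels in that line were 168, 56.5 and 34.4 CPM in control and 109.5, 41.0 and 19.8 in HD replicates 1 to 3, lower in HD at each number.

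*Gabra3* encodes alpha3, on the X chromosome, a subunit of brainstem, thalamic reticular and cortical neurons. Control libraries had 82.4, 106 and 122 CPM in cerebral Gad2+, 111, 141 and 168 in PV+ and 88.9, 135 and 176 in vGluT2+ IPs, and the SST+ libraries 163, 161, 146, 166 and 176. Cerebellar Gad2+ IPs had 42.3, 49.8 and 54.2, all below the cerebral populations, and cerebellar vGluT2+ IPs 5.65, 18.4, 5.42, 5.54 and 20.4, lower again in all 5. By mean CPM the order was cerebral SST+ IPs (162 ± 10.8), cerebral PV+ IPs (140.4 ± 20.8), cerebral vGluT2+ IPs (134 ± 30.3), cerebral Gad2+ IPs (102 ± 15.7), cerebellar Gad2+ IPs (49.0 ± 4.08), cerebellar vGluT2+ IPs (11.1 ± 7.62), where only the 2 cerebellar steps were beyond the spread. Against total RNA it was higher in SST+ (+1.25 ± 0.19, adjusted p = 6.4e-07), PV+ (+1.02 ± 0.17, adjusted p = 2.5e-06) and cerebral vGluT2+ IPs (+0.84 ± 0.18, adjusted p = 6.9e-05). In cerebellar Gad2+ IPs *Gabra3* was higher (+1.80 ± 0.16, adjusted p = 6.4e-11) with no overlap between the 12 IP (38.7, 50.8 and 68.8 CPM) and 14 total RNA libraries (9.13, 13.9 and 34.8). In cerebellar vGluT2+ IPs it was lower (-0.93 ± 0.26, adjusted p = 0.00258). Its split between cerebellar populations was therefore large, with vGluT2+ below Gad2+ IPs at -2.15 ± 0.35, adjusted p = 9.9e-05. Control replicates 2 and 5 of the vGluT2+ IPs, those with most *Slc17a6*, were the 2 highest, and without them in turn that difference was -2.43 and -2.54. Once the slope was a covariate, it no longer passed against total RNA in PV+ (+0.11, adjusted p = 0.500) or SST+ IPs (+0.32, adjusted p = 0.0669), and still did in cerebral vGluT2+ (+0.45, adjusted p = 3.9e-05) and in both cerebellar IPs (+1.66, adjusted p = 8.3e-13 in Gad2+ and -1.33, adjusted p = 3.4e-05 in vGluT2+). Against Gad2+ IPs, PV+ (+0.52, adjusted p = 0.00256) and SST+ IPs (+0.70, adjusted p = 4.7e-04) passed only without it (+0.02, adjusted p = 0.951 and +0.36, adjusted p = 0.203 with it), and PV+ against vGluT2+ IPs (+0.10, adjusted p = 0.555) passed as lower only with it (-0.33, adjusted p = 0.0250).

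*Gabra3* passed in no IP of HD mice, with log2 fold changes from -0.80 (cerebellar vGluT2+, adjusted p = 0.419) to +0.16 (cerebellar Gad2+, adjusted p = 1.0). The first of these was -0.42 without control replicate 5 and -0.56 without control replicate 2 of cerebellar vGluT2+ IPs, the 2 with most *Gabra3*. HD libraries had 55.4, 77.0 and 109 CPM in cerebral Gad2+ and 137, 116, 127, 135 and 161 in PV+ IPs. The HD SST+ libraries had 182, 174, 146 and 111. All of these overlapped the controls.

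*Gabra4* encodes alpha4, which joins delta in receptors outside synapses of striatal, thalamic and dentate neurons. Its control levels were 73.2, 138 and 152 CPM in cerebral Gad2+ and 55.8, 160.4 and 178 in cerebral vGluT2+ IPs, above most PV+ (36.3, 79.9 and 90.8) and SST+ libraries (84.0, 79.9, 36.4, 64.5 and 91.5). In the cerebellum it was at 16.3, 30.5 and 31.1 in Gad2+ and 5.00, 7.02, 3.43, 4.09 and 8.89 in vGluT2+ IPs (-2.15, adjusted p = 1.7e-07 and -4.70, adjusted p = 5.2e-08 against cerebrum). The 2 cerebellar populations did not overlap each other or any cerebral one. *Gabra4* was higher in cerebral Gad2+ (+0.57 ± 0.18, adjusted p = 0.00587) and vGluT2+ IPs (+0.84 ± 0.19, adjusted p = 1.9e-04) than in total RNA, and far lower in cerebellar vGluT2+ IPs (-2.25 ± 0.26, adjusted p = 1.8e-08). With total RNA of the Gad2 line alone the first of these was +0.52, adjusted p = 0.116. PV+ and SST+ IPs had less than cerebral Gad2+ IPs (-0.69, adjusted p = 0.0126 and -0.77, adjusted p = 0.0171) and than vGluT2+ IPs (-0.94, adjusted p = 0.00403 and -0.95, adjusted p = 0.0106). Between HD libraries of the same populations the first pair was -0.25, adjusted p = 0.410 and -0.30, adjusted p = 0.468. *Gabra4* still passed with the slope as a covariate in cerebral Gad2+ (+0.38, adjusted p = 0.00930) and vGluT2+ IPs (+0.41, adjusted p = 0.0105) against total RNA, and PV+ and SST+ IPs, at +0.13, adjusted p = 0.511 and +0.10, adjusted p = 0.695 without it, passed as lower (-0.70, adjusted p = 0.00173 and -0.82, adjusted p = 0.00263).

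In HD cerebral Gad2+ IPs *Gabra4* stood at 58.2, 65.8 and 124 CPM, with replicates 3 to 6 under every control library and replicates 1 and 2 among them (-0.62 ± 0.25, unadjusted p = 0.0240, adjusted p = 0.536). The values of the 6 striatal markers given above moved with genotype in the same libraries, and with the exon-length slope as a covariate *Gabra4* was at -0.41, adjusted p = 0.897. The part of either was not tested further. Elsewhere in the IPs its log2 fold change was -0.09 (PV+), -0.12 (SST+), -0.47 (cerebral vGluT2+), -0.02 (cerebellar Gad2+) and -0.37 (cerebellar vGluT2+), all with overlapping groups.

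*Gabra5* encodes alpha5, a subunit of hippocampal and deep cortical pyramidal neurons that is found largely outside synapses. It was the subunit that set cerebral vGluT2+ IPs apart, with 72.2, 88.0 and 102 CPM in control libraries against 26.1, 34.3 and 44.4 in Gad2+, 38.0, 44.9 and 52.8 in PV+ and 57, 48.3, 44.0, 37.1 and 53.1 in SST+ IPs. Every vGluT2+ library was above every library of the other 3. The tests gave +1.37 ± 0.13, adjusted p = 9.0e-07 against Gad2+ IPs, -0.97, adjusted p = 1.2e-06 for PV+ and -0.82, adjusted p = 1.7e-04 for SST+ against vGluT2+ IPs. Against cerebral total RNA (43.6, 57 and 66.1 CPM in 25 libraries), *Gabra5* was higher in the 12 vGluT2+ IPs of both genotypes (66.6, 84.6 and 102) with no overlap (+0.51 ± 0.07, adjusted p = 1.2e-08). It was lower in the IPs of the 3 GABAergic lines (-0.92, adjusted p = 6.5e-11 in Gad2+, -0.42, adjusted p = 7.6e-06 in PV+ and -0.21, adjusted p = 0.0126 in SST+). The small SST+ difference did not pass against total RNA of the SST line alone (-0.18, adjusted p = 0.156) or with the mouse as a block (-0.07, adjusted p = 0.554). PV+ and SST+ IPs had more than Gad2+ IPs (+0.45, adjusted p = 0.00926 and +0.54, adjusted p = 0.0110), the former +0.31, adjusted p = 0.0517 without control Gad2+ replicate 5 and +0.44, adjusted p = 0.108 between HD libraries. These 2 differences did not pass with the slope as a covariate (+0.19, adjusted p = 0.564 and +0.46, adjusted p = 0.271).

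The cerebellum held little *Gabra5*. Control cerebellar Gad2+ IPs had 0, 0.628 and 1.30 CPM and total RNA 0.476, 0.942 and 5.46, so that cerebellum minus cerebrum was -5.75, adjusted p = 4.1e-09 in Gad2+ IPs and -5.21, adjusted p = 2.5e-06 in total RNA. The 5 control vGluT2+ libraries had 1.27, 6.88, 1.08, 0.462 and 7.87, and the 2 high ones, replicates 2 and 5, were the 2 with most *Slc17a6*. *Gabra5* passed as higher in cerebellar vGluT2+ than in Gad2+ IPs (+2.50, adjusted p = 0.0117), and the value was +1.92 at its lowest, without replicate 5. Between HD libraries of the same populations it did not pass (+0.58, adjusted p = 0.307). In HD mice *Gabra5* was at 66.6, 78.8 and 86.7 CPM in cerebral vGluT2+ IPs (-0.16 ± 0.10, adjusted p = 0.689) and at 16.9, 26.2 and 42.3 in Gad2+ IPs (-0.32 ± 0.21, adjusted p = 0.559). Both groups overlapped their controls.

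*Gabra6* encodes alpha6, which in the brain is nearly confined to cerebellar granule cells. Control cerebellar vGluT2+ IPs had 1278, 1470.2, 1175, 1399 and 1006 CPM, total RNA 322, 587 and 454 (Gad2 line) and 631, 549, 428 and 471 (vGluT2 line), and Gad2+ IPs 82.5, 131 and 204. These 3 kinds of library did not overlap. *Gabra6* was higher in vGluT2+ IPs than in total RNA (+1.31 ± 0.15, adjusted p = 2.9e-08), lower in Gad2+ IPs (-1.53 ± 0.19, adjusted p = 3.4e-08), and apart between the populations by +3.19 ± 0.22, adjusted p = 1.5e-08. The 6 granule cell markers moved the same way, from a median of 1211 CPM in Gad2+ to 11090.5 in vGluT2+ IPs, with 0 of 6 at 0 in either. Their part in the *Gabra6* level of Gad2+ IPs was not tested.

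In cerebral IPs *Gabra6* was near 0, and single libraries carried most of its signal. Control levels were 0, 0.244 and 0.995 CPM in Gad2+, 0.0251, 0.408 and 2.76 in vGluT2+ and 0.0778, 1.67 and 26.1 in PV+ IPs. The SST+ libraries had 0.785, 6.73, 0.886, 6.31 and 4.11. Replicate 2 was the highest PV+ control, and without it the difference from Gad2+ IPs moved from +4.02, adjusted p = 0.00735 to +2.06, adjusted p = 0.0608. The same difference for SST+ IPs was +3.45, adjusted p = 0.00319, and +2.08, adjusted p = 0.219 between HD libraries. HD PV+ libraries had 0.144, 0.0538, 83.0, 0.406 and 0.337, the high one being replicate 3, so that the HD difference was +1.57 ± 1.57 (adjusted p = 1.0), and -4.41 without it. Of the 4 HD SST+ libraries 1 was high too (0.233, 12.5, 0.465 and 0.396). Cerebral total RNA, from homogenate of the same tissue, had 0.0330, 0.375 and 17.3 CPM over 25 libraries, with 17.3, 15.0, 11.5 and 9.54 at the top. In Gad2+ IPs *Gabra6* was lower than in that total RNA (-2.42 ± 0.89, adjusted p = 0.0158), which did not pass with the mouse as a block (-2.25, adjusted p = 0.0668). In PV+ IPs the difference from total RNA was +1.75, adjusted p = 0.0628, and +0.13, adjusted p = 0.915 without HD replicate 3, whose mouse is in the fit with the mouse as a block (+2.0, adjusted p = 0.00183). The PV+ and SST+ differences from Gad2+ IPs did not pass with the slope as a covariate (+2.47, adjusted p = 0.494 and +1.77, adjusted p = 0.576). Between regions *Gabra6* had the largest differences of the list, +10.49 ± 0.82, adjusted p = 7.8e-08 in vGluT2+ IPs, +8.55, adjusted p = 1.6e-09 in Gad2+ IPs and +8.39, adjusted p = 2.1e-05 in total RNA.

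In HD mice cerebellar vGluT2+ IPs had 692, 979.6 and 1244 CPM of *Gabra6* against 1278, 1470.2, 1175, 1399 and 1006 in controls, and the 3 lowest HD libraries (replicates 2, 4 and 6) were under every control (-0.37 ± 0.15, unadjusted p = 0.0263, adjusted p = 0.252). The 6 granule cell markers summed to 6051, 7304 and 8082 in these HD libraries and 8290.3, 11090.5 and 11612 in controls, without overlap, and 2 of the 6 fell, *Cbln3* (-0.80, adjusted p = 3.4e-04) and *Neurod1* (-0.87, adjusted p = 0.00915). The part of these markers in the *Gabra6* value was not tested. In cerebellar Gad2+ IPs HD libraries had 59.6, 161 and 194 CPM of *Gabra6* (+0.13 ± 0.27, adjusted p = 1.0), with 1 library (replicate 4) under the controls and 5 within their range.

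**Figure D2:**
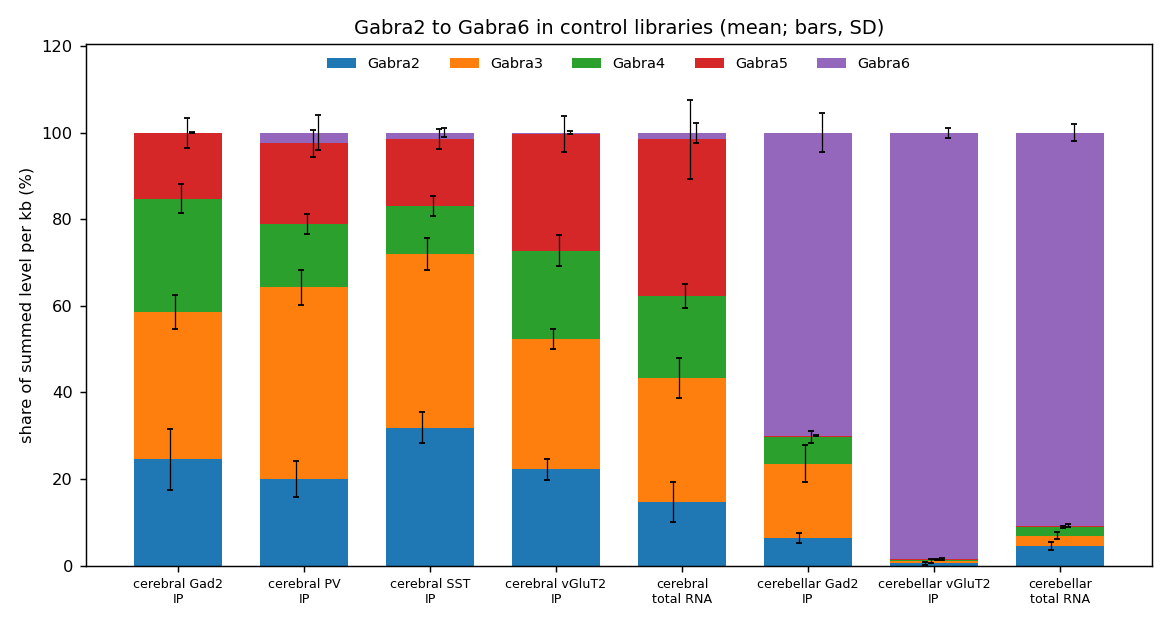
Share of *Gabra2*, *Gabra3*, *Gabra4*, *Gabra5* and *Gabra6* in their summed level per kilobase of exon, in control libraries of the 6 IPs and of total RNA (mean with SD over libraries).

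Levels per kilobase of exon allow subunits to be set side by side. Shares were taken within the 5 alpha subunits of the list, a sum chosen after the data were seen. *Gabra3* had the largest mean share in every cerebral IP, with 34.0 ± 3.85% (mean ± SD over libraries) in control Gad2+ IPs, followed by *Gabra4* (26.2 ± 3.40), *Gabra2* (24.6 ± 7.06) and *Gabra5* (15.1 ± 3.47). PV+ IPs leaned most on *Gabra3* (44.2 ± 4.0), with *Gabra2* (20.1 ± 4.13) and *Gabra5* (18.6 ± 3.19) next. SST+ IPs had *Gabra3* (40.1 ± 3.69) and the largest *Gabra2* share of the IPs (31.9 ± 3.57). Cerebral vGluT2+ IPs had the largest *Gabra5* share of the IPs (26.9 ± 4.22), after *Gabra3* (30.1 ± 2.36). Cerebral total RNA had more of it (36.1 ± 9.09). In the cerebellum *Gabra6* led, at 69.9 ± 4.50 in Gad2+ IPs, where *Gabra3* had 17.2 ± 4.35, and 98.4 ± 1.13 in vGluT2+ IPs. The order of cerebral shares depended on the length used. Per kilobase of coding sequence *Gabra2* was first, at 39.6, 35.5, 50.9 and 38.1% in cerebral Gad2+, PV+, SST+ and vGluT2+ IPs, where *Gabra3* had 24.3, 34.3, 27.9 and 22.5. *Gabra6* stayed first in the cerebellar IPs (55.4 and 96.7). In HD cerebral Gad2+ IPs the share of *Gabra2* was 13.8 ± 5.75% (7.21 to 20.4, control 12.0 to 33.4), which was not tested.

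All 7 were then ordered by level per kilobase of exon, an order that depended on the length used. In control cerebral Gad2+ IPs *Gabrd* (49.2 ± 9.34 CPM per kb) came first and clear of *Gabra3* (26.1 ± 4.0), *Gabra4* (20.5 ± 5.17), *Gabra2* (20.1 ± 8.83) and *Gabra5* (11.4 ± 2.32), the last 4 each overlapping the next. *Gabrb2* was below these (5.53 ± 2.68) and *Gabra6* last (0.137 ± 0.157). PV+ IPs again had *Gabrd* (44.6 ± 3.94) and *Gabra3* (35.8 ± 5.30) at the top, whereas SST+ IPs had *Gabra3* (41.3 ± 2.76) and *Gabra2* (33.6 ± 8.96) before *Gabrd* (22.4 ± 5.25). In cerebral vGluT2+ IPs *Gabra3*, *Gabrd*, *Gabra5*, *Gabra2* and *Gabra4* ran from 34.1 ± 7.72 to 23.9 ± 7.41 and each overlapped the next. Cerebellar vGluT2+ IPs had *Gabra6* (508 ± 73.9) clear of *Gabrd* (149 ± 23.8), and *Gabrd* clear of *Gabrb2* (19.7 ± 5.64). In cerebellar Gad2+ IPs *Gabra6* (54.8 ± 19.2) and *Gabrd* (32.6 ± 1.41) overlapped. Per kilobase of coding sequence *Gabra2* (114) came before *Gabrd* (105) and *Gabra4* (72.0) before *Gabra3* (64.1) in control cerebral Gad2+ IPs, and *Gabra2* was first in SST+ (189.8) and cerebral vGluT2+ IPs (145). *Gabra6* stayed first and *Gabrd* next in cerebellar vGluT2+ (908 and 319) and Gad2+ IPs (97.9 and 69.6).

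The beta subunits complete the GABA binding site and hold the receptor at the synapse through its anchors. *Gabrb2* encodes beta2. Control levels were 4.99, 42.5 and 48.9 CPM in cerebral Gad2+, 43.3, 64.7 and 95.5 in PV+ and 20.1, 61.5 and 120.0 in vGluT2+ IPs, and 21.2, 53.0, 37.6, 50.7 and 55.0 in the SST+ libraries. In the cerebellum Gad2+ IPs had 31.0, 83.3 and 89.1 and vGluT2+ IPs 126, 181, 90.6, 131 and 96.7. Libraries of a group lay far apart, with 1 cerebral Gad2+ (replicate 6) and 1 cerebellar Gad2+ library (replicate 2) well under the others. By mean CPM the order was cerebellar vGluT2+ IPs (125 ± 35.9), cerebellar Gad2+ IPs (75.8 ± 22.2), cerebral vGluT2+ IPs (67.9 ± 36.2), cerebral PV+ IPs (66.3 ± 22.5), cerebral SST+ IPs (43.5 ± 14.2), cerebral Gad2+ IPs (35.2 ± 17.1), and only the first step was beyond the spread. Against total RNA *Gabrb2* was higher in PV+ (+1.67 ± 0.39, adjusted p = 2.5e-04) and cerebral vGluT2+ IPs (+1.13 ± 0.43, adjusted p = 0.0191), the latter call lost without control replicate 3 (+0.92, adjusted p = 0.0531) or with total RNA of the vGluT2 line alone (+0.68, adjusted p = 0.295). SST+ IPs did not pass against all cerebral total RNA (+0.85, adjusted p = 0.0914) but passed against that of the SST line (+1.68, adjusted p = 3.1e-04), which had 9.37, 11.9, 9.93 and 26.4 CPM in control libraries where the Gad2 line had 85.9, 10.7 and 7.67. Cerebellar vGluT2+ IPs were higher (+0.75 ± 0.33, adjusted p = 0.0485), a call lost on leaving out any 1 of 5 of the 11 IP libraries (+0.65, adjusted p = 0.0886 without HD replicate 3). Given the slope as a covariate, *Gabrb2* passed in cerebral vGluT2+ IPs (+0.38, adjusted p = 0.0415), but not in PV+ (-0.37, adjusted p = 0.0805) or cerebellar vGluT2+ IPs (+0.21, adjusted p = 0.224), and SST+ IPs passed as lower (-1.35, adjusted p = 3.5e-06). The sign in PV+ and SST+ IPs thus depended on the slope.

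Between control populations, *Gabrb2* passed as higher in PV+ than in cerebral Gad2+ IPs (+0.99, adjusted p = 0.0384) and in cerebellar vGluT2+ than Gad2+ IPs (+0.70, adjusted p = 0.0212). The first call was lost without any of control Gad2+ replicate 5 or PV+ replicates 1, 2 and 3 (+0.83, adjusted p = 0.102 without the former), by DESeq2 (+0.94, adjusted p = 0.0640) and between HD libraries (+1.57, adjusted p = 0.0649), and the second without vGluT2+ replicate 2 (+0.50, adjusted p = 0.0902) and between HD libraries (+0.39, adjusted p = 0.279). The cerebellum had more of it than the cerebrum in Gad2+ IPs (+1.10, adjusted p = 0.0274, and +1.02, adjusted p = 0.0579 without cerebral replicate 5), in vGluT2+ IPs (+0.83, adjusted p = 0.0476, lost on leaving out any 1 of 6 of the 11 libraries, with +0.66, adjusted p = 0.127 without cerebellar replicate 2, and +0.91, adjusted p = 0.0591 with the mouse as a block) and in total RNA (+2.10, adjusted p = 0.0147). With the slope as a covariate PV+ against Gad2+ IPs (-0.45, adjusted p = 0.596) and the regional differences of Gad2+ (+0.56, adjusted p = 0.262) and vGluT2+ IPs (+0.59, adjusted p = 0.0655) did not pass, and the cerebellar populations still did (+0.63, adjusted p = 0.0146). *Gabrb2* was then lower in PV+ (-1.07, adjusted p = 6.9e-04) and SST+ IPs (-1.89, adjusted p = 2.2e-04) than in vGluT2+ IPs, and higher in PV+ than SST+ IPs (+0.87, adjusted p = 0.00230). *Gabrb2* was thus the member whose calls depended most on single libraries.

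In HD cerebral Gad2+ IPs the 6 libraries split, with replicates 1, 2 and 4 at 47.2, 44.3 and 37.0 CPM of *Gabrb2* and replicates 3, 5 and 6 at 4.45, 3.08 and 4.01. Of the controls, 1 was as low as the second set (-0.59 ± 0.70, adjusted p = 0.703, and -0.13, adjusted p = 0.981 with the exon-length slope as a covariate). These 4 low libraries were those with the lowest slopes of the 12. Cerebral vGluT2+ IPs had 7.23, 38.2 and 48.3 in HD libraries (-0.97 ± 0.43, unadjusted p = 0.0409, adjusted p = 0.677). HD PV+ IPs had 64.1, 51.4, 112, 31.7 and 95.1, with no clear side to controls (+0.07, adjusted p = 1.0). In cerebellar vGluT2+ IPs HD libraries had 46.9, 98.4 and 149 (-0.29, adjusted p = 0.610), and in cerebellar Gad2+ IPs 24.9, 79.6 and 106 (-0.01, adjusted p = 1.0). HD and control libraries of *Gabrb2* overlapped in all IPs.

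The delta subunit takes the place of gamma in receptors outside synapses. *Gabrd*, its gene, is known from cerebellar granule cells, dentate granule cells, thalamus and parvalbumin interneurons. Control cerebellar vGluT2+ IPs had 508, 351, 451, 472 and 366 CPM of *Gabrd*, above every other population, and cerebellar Gad2+ IPs 88.7, 93.5 and 99.8. Cerebral Gad2+ IPs had 99.0, 141 and 173 and PV+ IPs 108, 130.1 and 140.1, higher than vGluT2+ (81.4, 92.2 and 93.3) and SST+ libraries (47.4, 72.0, 81.8, 71.4 and 49.7). By mean CPM the order was cerebellar vGluT2+ IPs (429.5 ± 68.3), cerebral Gad2+ IPs (141 ± 26.9), cerebral PV+ IPs (128 ± 11.3), cerebellar Gad2+ IPs (93.8 ± 4.07), cerebral vGluT2+ IPs (89.9 ± 4.72), cerebral SST+ IPs (64.4 ± 15.1). Steps 1 and 3 of that order were beyond the spread. Against total RNA *Gabrd* was higher in cerebral Gad2+ (+0.78 ± 0.11, adjusted p = 6.4e-08) and PV+ IPs (+0.76 ± 0.10, adjusted p = 1.3e-08) and lower in SST+ IPs (-0.33 ± 0.12, adjusted p = 0.0154). PV+ and SST+ IPs were therefore apart, at +0.98 ± 0.14, adjusted p = 2.5e-04 with no overlap between libraries. SST+ IPs had less than cerebral Gad2+ IPs too (-1.09, adjusted p = 1.5e-04). So had vGluT2+ IPs (-0.67, adjusted p = 5.1e-04). Against these, *Gabrd* was higher in PV+ (+0.53, adjusted p = 4.0e-05) and lower in SST+ IPs (-0.41, adjusted p = 0.0219), the latter -0.34, adjusted p = 0.0559 without SST+ replicate 6 and -0.34, adjusted p = 0.0903 between HD libraries. *Gabrd* stayed, with the slope as a covariate, higher in cerebral Gad2+ (+0.93, adjusted p = 1.9e-15) and PV+ IPs (+1.36, adjusted p = 2.1e-16) than in total RNA and in PV+ than SST+ IPs (+0.95, adjusted p = 5.7e-04). In SST+ IPs the difference from total RNA passed with the opposite sign (+0.27, adjusted p = 0.0451), and cerebral vGluT2+ IPs passed as higher (+0.27, adjusted p = 2.4e-05). SST+ against Gad2+ (-0.95, adjusted p = 0.0560) and vGluT2+ IPs (-0.36, adjusted p = 0.185) did not pass.

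In the cerebellum *Gabrd* was higher in vGluT2+ IPs than in total RNA (+0.71 ± 0.13, adjusted p = 1.9e-05) and lower in Gad2+ IPs with no overlap (-1.28 ± 0.13, adjusted p = 7.5e-10). The populations differed by +2.17 ± 0.11, adjusted p = 8.7e-10. Cerebellum against cerebrum gave +2.21, adjusted p = 8.6e-10 in vGluT2+ IPs, +1.17, adjusted p = 1.4e-04 in total RNA and, with the opposite sign, -0.60, adjusted p = 5.8e-04 in Gad2+ IPs. *Gabrd* and *Gabra6*, partners in granule cells, were thus the 2 highest of the 7 per kilobase in cerebellar vGluT2+ IPs, though *Gabrd* was also found in all cerebral populations.

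Over all lines together and with no covariate but Cre line, *Gabrd* passed in no comparison of HD and control mice in edgeR. In cerebral vGluT2+ IPs HD libraries had 61.7, 71.5 and 93.2 CPM against 81.4, 92.2 and 93.3, with 5 of 6 HD libraries under every control (-0.30 ± 0.10, unadjusted p = 0.0106, adjusted p = 0.666). The 3 thalamus markers summed to 176, 203 and 253 in those HD libraries and 180.0, 277 and 309 in controls (*Prkcd* the most abundant, none at 0), and their part was not tested. Cerebral total RNA had 35.4, 69.8 and 84.8 CPM in 12 HD and 46.8, 88.5 and 111 in 13 control libraries (-0.33 ± 0.13, unadjusted p = 0.0153, adjusted p = 0.446), which overlapped. With the exon-length slope of each library as a covariate, chosen after the data were seen, this was -0.29, adjusted p = 0.00142, and 1 of 7 subunits passed (3.77% of all genes). Same-numbered control and HD libraries of the Gad2 line were taken as pairs in added fits (replicate block). With that block *Gabrd* was at -0.33, adjusted p = 0.135 over all lines, -0.29, adjusted p = 5.2e-04 with the slope too, and -0.34, adjusted p = 0.108 in the Gad2 line alone. The pairs thus did not change whether it passed. Some cell type markers also differed in cerebral total RNA. The 3 thalamus markers (*Prkcd* the most abundant in HD libraries) summed to 106, 127 and 162 against 116, 153 and 185 CPM in HD and control libraries, with *Prkcd* (-0.50, adjusted p = 0.0329) fallen and *Tcf7l2* (-0.02, adjusted p = 0.992) and *Rora* (+0.16, adjusted p = 0.975) not. Of the 6 striatal markers *Drd2* (-0.52, adjusted p = 0.0216), *Adora2a* (-0.77, adjusted p = 0.0106) and *Rgs9* (-0.53, adjusted p = 0.0276) fell. The sums were 269.9, 345 and 430.1 against 357, 424 and 508 for 4 PV markers (*Syt2*) and 1536, 1773 and 1993 against 1791, 2051 and 2366 for 5 astrocyte markers (*Aldoc*), and no gene of these 2 lists passed. Nor did the oligodendrocyte markers *Mbp* (-0.28, adjusted p = 0.444), *Mog* (-0.06, adjusted p = 0.975) and *Mag* (-0.15, adjusted p = 0.975). All 4 genes of that list summed to 2741, 3708 and 4379 CPM in HD and 4112, 4466 and 5246 in control libraries. The part of any of these markers in *Gabrd* was not tested. In HD PV+, SST+, cerebral Gad2+, cerebellar Gad2+ and cerebellar vGluT2+ IPs *Gabrd* was at -0.02, -0.25, -0.19, -0.07 and -0.20.

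**Figure D3:**
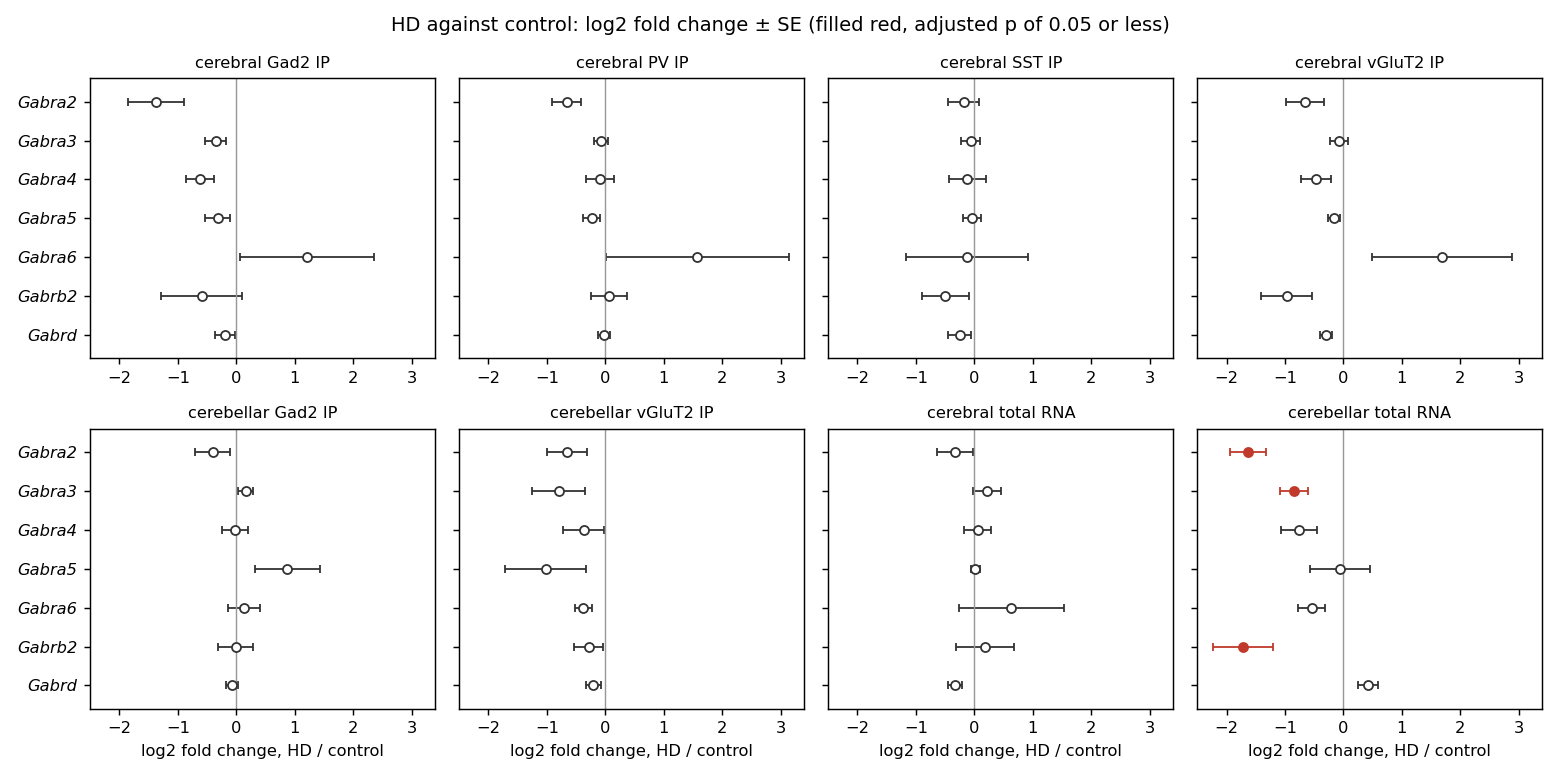
Log2 fold change of HD against control for each subunit in the 8 comparisons, with SE. Filled marks passed at an adjusted p of 0.05 or less.

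Total RNA of the cerebellum was where subunits fell in HD mice. It holds all cells of the tissue, granule cells most of all. In the Gad2 line *Gabra2* stood at 38.9, 90.5 and 52.8 CPM in control and 31.0, 19.9 and 49.3 in HD libraries. Those of the vGluT2 line had 102, 87.6, 63.3 and 103 in controls and 17.1, 24.1, 16.4 and 22.6 in HD mice. All 4 HD libraries of the vGluT2 line were under every control library of either line, and in the Gad2 line HD replicate 3 lay among the controls (log2 fold change -1.63 ± 0.30, adjusted p = 0.0140). Again in the Gad2 line *Gabrb2* stood at 57, 158 and 40.9 CPM in control and 38.1, 27.9 and 122 in HD libraries. In the vGluT2 line controls had 149.6, 87.1, 121 and 124 and HD libraries 33.3, 14.8, 13.1 and 17.1. HD replicate 3 of the Gad2 line was again high (-1.72 ± 0.51, adjusted p = 0.0347). *Gabra3*, at lower levels, had 14.3, 20.1 and 13.6 in control and 10.2, 9.81 and 17.4 in HD libraries of the Gad2 line. Its vGluT2 line libraries had 24.0, 18.3, 15.2 and 34.8 in controls and 9.28, 12.0, 11.1 and 9.13 in HD mice (-0.84 ± 0.24, adjusted p = 0.0318). The highest of these, control replicate 4, also had most *Tcf7l2* (61.9 CPM), *Nrgn* (84.4) and *Slc17a6* (63.0) of all cerebellar total RNA libraries. For each of *Gabra2*, *Gabrb2* and *Gabra3* the genotypes lay further apart in the vGluT2 line, a difference between lines that was not tested. In the vGluT2 line alone, where 51.7% of genes passed, *Gabra2* was at -2.22, adjusted p = 8.4e-05, *Gabrb2* at -2.67, adjusted p = 1.8e-04 and *Gabra3* at -1.23, adjusted p = 0.00290. *Gabra4* (-1.21, adjusted p = 0.0117) and *Gabra6* (-0.92, adjusted p = 0.00459) also fell there and *Gabrd* rose (+0.82, adjusted p = 0.00277), so that 6 of 7 passed. In the Gad2 line alone 0 of 7 passed (0% of genes in edgeR, 0 of 7 at an unadjusted p under 0.05), with -0.85 for *Gabra2*, -0.43 for *Gabrb2* and -0.34 for *Gabra3*.

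The fall of these subunits moved with the exon-length slope of the libraries. With that slope as a covariate, added after the data were seen, 0 of 7 subunits passed (0.428% of genes), *Gabra2* at -0.79, adjusted p = 0.0644, *Gabrb2* at -0.37, adjusted p = 0.569 and *Gabra3* at -0.32, adjusted p = 0.631. In the vGluT2 line genotype and slope did not overlap, so their parts cannot be told apart there. Single libraries also moved the calls. *Gabra2* passed with any 1 library left out, but *Gabra3* and *Gabrb2* each lost their call on leaving out any 1 of 10 of the 14 libraries, with *Gabrb2* at -1.52, adjusted p = 0.0786 without HD replicate 3 of the vGluT2 line. Leaving out HD replicate 3 of the Gad2 line raised the count to 6 of 7 (51.1% of all genes), and leaving out control replicate 1 of that line raised it to 5 (35%). As a share of the 5 listed alpha subunits per kilobase, which needs no scaling between libraries, *Gabra2* was 2.22 ± 0.234% in 7 HD and 4.54 ± 0.887% in 7 control libraries (1.91 to 2.61 against 3.5 to 6.18), and the genotypes did not overlap. *Gabra6* was 93.5 ± 1.02% and 90.7 ± 1.98%. The share of *Gabra2* is not free of the exon-length slope, since *Gabra6*, most of the sum, has fewer bases of exon. Slope and genotype thus cannot be told apart in this share either, and it has no share of all genes beside it.

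*Gabrd* went the other way from the 3 subunits that fell. In the Gad2 line *Gabrd* stood at 223, 187 and 263 CPM in control and 209, 248 and 160.4 in HD libraries. Those of the vGluT2 line had 171, 176, 197 and 120.3 in controls and 377, 295, 264 and 276 in HD mice. Every HD library of the vGluT2 line was thus above every control of that line, while the Gad2 line overlapped. Over both lines it did not pass (+0.42 ± 0.18, adjusted p = 0.0858). Nor did *Gabra4* (-0.76, adjusted p = 0.0714), *Gabra5* (-0.06, adjusted p = 0.942, and +0.66 without control replicate 4 and -0.32 without HD replicate 3 of the vGluT2 line) or *Gabra6* (-0.55, adjusted p = 0.0848). The granule cell markers summed to 3603, 4079 and 5292 CPM in HD and 4252, 4729 and 5986 in control total RNA. For Purkinje cells (5 markers, *Itpr1* the most abundant) the sums were 2558, 2968 and 4036 and 3979.5, 4761 and 4995. The oligodendrocyte markers *Mbp* (-0.07, adjusted p = 0.663), *Mog* (+0.13, adjusted p = 0.449) and *Mag* (+0.30, adjusted p = 0.173) did not pass. All 4 genes of that list summed to 2478, 2700 and 3624 CPM in HD and 3258, 3855 and 4361 in control total RNA. The 4 microglia markers (*C1qa* the most abundant) summed to 46.2, 65.6 and 76.6 and 39.5, 46.0 and 51.8, all HD libraries of the vGluT2 line being above all controls, and *Tmem119* (+0.66, adjusted p = 0.0275) and *C1qa* (+0.60, adjusted p = 0.0280) rose. Further lists differed in the vGluT2 line. The 4 PV markers (*Pvalb*) summed to 1918, 2157, 2532 and 2230 in its HD and 1466, 1417, 1847 and 1511 in its control libraries. The 3 thalamus markers (*Rora*) summed to 170, 195, 154 and 201 and to 405, 353, 274 and 436. Neither list overlapped between genotypes of that line, and both did in the Gad2 line. In the cerebellum these lists do not stand for the cell types they are named for. Control cerebellar Gad2+ IPs had means of 3700 CPM of *Pvalb*, 484 of *Rora* and 282 of *Prkcd*, and 1.16 of *Tcf7l2*. The part of any of these markers in the subunits was not tested.

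**Figure D4:**
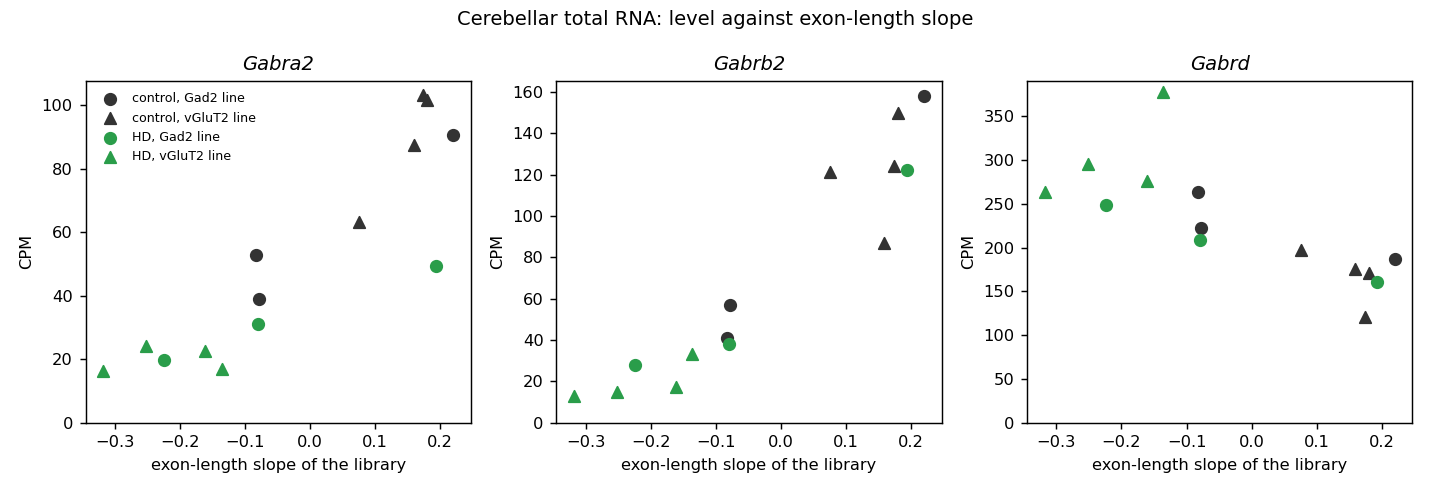
*Gabra2*, *Gabrb2* and *Gabrd* in cerebellar total RNA (CPM) against the exon-length slope of each library, by genotype and Cre line.

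The other genes of GABA signalling give the surroundings of the 7. Of 9 further GABA-A subunits that were listed, 4 to 7 had enough counts per comparison, and 0 passed in any IP or in cerebral total RNA of HD mice. In cerebellar total RNA 0 higher and 1 lower of 5 (median -0.86) passed, *Gabrb1* (-1.40, adjusted p = 0.0280). The median over all genes there was -0.01. Of 21 genes for receptor anchoring and trafficking, 2 higher and 0 lower of 21 (median +0.06) passed in cerebellar vGluT2+ IPs (2.11% of all genes passed, median -0.01), *Slitrk3* (+0.75, adjusted p = 0.0335) and *Insyn1* (+0.55, adjusted p = 0.0351). *Slitrk3* encodes a postsynaptic adhesion protein of inhibitory synapses and *Insyn1* a component of their scaffold. In cerebellar total RNA, where 24.5% of all genes passed (12% higher and 12.5% lower), the list had 5 higher and 2 lower of 21 (median +0.04). Those higher were *Clptm1* (+0.63), *Gabarap* (+0.55), *Nlgn2* (+0.40), *Gabarapl1* (+0.36) and *Zdhhc3* (+0.30). Those lower were *Plcl1* (-1.35) and *Arfgef2* (-0.41). Anchoring genes passed in no other HD comparison. GABA-B receptor genes had 1 higher and 1 lower of 5 (median -0.49) in cerebellar total RNA and chloride transport genes 0 higher and 2 lower of 5 (median -0.24), with *Gabbr1* at +0.29, *Gabbr2* at -0.49, *Slc12a2* at -1.23 and *Wnk1* at -0.77. Both lists had 0 in all other HD comparisons.

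Further subunits also differed between populations. Against cerebral Gad2+ IPs, vGluT2+ IPs had 1 higher and 6 lower of 7 (median -1.40) of them (29.8% of all genes passed, median -0.01), where the 7 had a median of +0.37. Between cerebellar vGluT2+ and Gad2+ IPs, where 56.4% of all genes passed, the anchoring list had 6 higher and 7 lower of 21 (median +0.01) and GABA-B genes 1 higher and 3 lower of 5 (median -1.30), with all genes at +0.02.

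Genes whose levels followed the subunits most closely were ranked by Pearson r of log2(CPM + 1) over the 54 control libraries, among 13373 genes. The points share their populations, regions and, for IP and total RNA, mice. For *Gabra2* the closest were *Gabrb1* (0.944), *Fnbp1l* (0.916) and *Dsel* (0.912). *Gabrb1*, of the same cluster on chromosome 5, was thus first. *Gabra3* was closest to *Pam* (0.972), *Lrfn5* (0.964) and *Epha5* (0.959), *Gabra4* to *Gucy1a1* (0.955), *Tmeff1* (0.952) and *Efnb2* (0.951), and *Gabra5* to *Hs3st4* (0.985), *Sertm1* (0.984) and *Chrm3* (0.984). Genes closest to *Gabra6* were *Cbln3* (0.994), *Fat2* (0.989) and *Crtam* (0.989), of which *Cbln3* and *Fat2* are on the granule cell list. *Gabrb2* was closest to *Nipbl* (0.933), *Esco1* (0.931) and *Smchd1* (0.927) and *Gabrd* to *Nfyc* (0.932), *Slc9a3r2* (0.917) and *Nrf1* (0.888). Within the list, *Gabra3* and *Gabra4* were most alike (0.869) and *Gabra5* and *Gabra6* most opposed (-0.890).

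The genes lie in clusters of subunit genes on the mouse genome (GRCm38). *Gabra2* (chr5:70957597-71095849) and *Gabra4* (chr5:71569749-71658308) share a cluster with *Gabrg1* and *Gabrb1* on chromosome 5, and *Gabra6* (chr11:42306437-42321072) and *Gabrb2* (chr11:42419757-42629028) lie together on chromosome 11. *Gabra5* (chr7:57407672-57510059) lies beside *Gabrg3* on chromosome 7, *Gabra3* (chrX:72432681-72656848) between *Gabre* and *Gabrq* on the X chromosome, and *Gabrd* (chr4:155384980-155398112) apart from other subunits on chromosome 4. *Htt*, which carries the knock-in allele, lies on chromosome 5 too, 36.0 Mb from *Gabra2* and 36.7 Mb from *Gabra4*. *Gabra4* overlaps *Gabrb1* by 196 bases on opposite strands. The kit was a stranded one, and whether strand was used in counting is not stated.

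Promoter sequences from RefSeq (GRCm38.p6), 250 bases before to 50 after the start of transcription, were matched for 6 of the 7 (all but *Gabrd*). *Gabra6* and *Gabra5* are shown, both on the minus strand, since their levels were the most opposed of the list across cell types. Capitals mark matches to TTGGCA on either strand (its reverse complement is TGCCAA), the core letters of nuclear factor I sites, a motif chosen after the sequences were read. It is in 14.1% of all 32851 windows of this length. The window of *Gabra6* (chr11:42321023-42321322) holds 1 match and that of *Gabra5* (chr7:57510010-57510309) holds 0. Binding at these letters was not measured.
Gabra6: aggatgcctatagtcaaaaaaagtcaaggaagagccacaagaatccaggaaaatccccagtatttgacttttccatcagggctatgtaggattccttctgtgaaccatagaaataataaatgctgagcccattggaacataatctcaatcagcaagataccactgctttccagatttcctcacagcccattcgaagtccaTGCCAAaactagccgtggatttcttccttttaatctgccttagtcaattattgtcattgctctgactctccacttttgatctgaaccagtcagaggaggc
Gabra5: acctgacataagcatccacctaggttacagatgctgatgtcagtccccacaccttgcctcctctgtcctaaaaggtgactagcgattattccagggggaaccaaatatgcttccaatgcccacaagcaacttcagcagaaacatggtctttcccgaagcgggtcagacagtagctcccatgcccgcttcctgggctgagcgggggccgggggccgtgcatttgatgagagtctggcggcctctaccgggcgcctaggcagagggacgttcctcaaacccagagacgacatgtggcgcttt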

How the data were processed

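Polyadenylated RNA of RiboTag IPs and of total RNA was sequenced by the authors in 106 libraries, aligned to GRCm38.p6 with STAR and quantified with Salmon in nf-core/rnaseq 3.0 (versions of both not stated). A stranded kit was used. The deposited table holds estimated counts per gene (8.57% of values are not whole), not normalized, for 55401 listed entries, of which 92 are ERCC spike-ins (at most 4.45% of a library). The annotation release is not stated. 55141 genes were matched to symbols by GENCODE M21, 21897 of them protein coding. Every column was matched to a label. 3 libraries are marked as re-sequenced.

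The 7 subunits and the marker and comparison lists were chosen with earlier results of these data known. Counts of protein-coding genes with a mean above 10 in a comparison were rounded, scaled by TMM and tested with edgeR 4.0.16 quasi-likelihood F tests (limma 3.58.1, R 4.3.3), with Benjamini-Hochberg adjustment over the genes tested. SE is the size of the log2 fold change divided by the root of F. Genotype was a covariate for IPs against total RNA, and Cre line for HD against control total RNA. DESeq2 1.42.0, other scalings, filters, covariates and sample sets were alternatives, of which the exon-length slope, each cerebral line alone and shares within the 5 alpha subunits of the list were chosen after the data were seen. Code was tested on simulated data. Tables and figures used Python 3.11.15 (numpy 2.4.6, pandas 2.3.3, matplotlib 3.10.9). No library was left out of the tests. Deviations from the group means of same-numbered control and HD libraries correlated at 0.965, 0.569 and 0.889 in cerebral total RNA of the Gad2 line, which were therefore taken as pairs in fits added after the data were seen. What the pairs share is not in the labels. Numbers 2 and 3 join mice (BO20 with BO8 and BO24 with BO19) that are not same-numbered in the cerebral Gad2+ IPs. Same-numbered libraries of these pairs were also alike in exon-length slope.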

Additional observations from a re-analysis of the deposited data

Results flagged for a closer look

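The highest and the lowest library of each group of 4 to 10 were set against the nearest of the others for each of the 7 subunits, as the gap divided by the range of the group. The ratio was above the 95% critical value of Dixon's test in 14 of 105 pairs of gene and group, where chance alone marks about 1 in 20 groups. Groups share libraries across genes.

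In control SST+ IPs, replicate 6 had the highest *Gabra2*, 374 CPM, with the next at 242 (ratio 0.730). *Gabra4* was lowest in replicate 4 of control cerebellar Gad2+ IPs, at 16.3 CPM where the next had 29.3 (ratio 0.879). The lowest *Gabra4* value of control PV+ IPs was 36.3 CPM in replicate 6, and the nearest other was 73.4 (ratio 0.680). In control cerebral vGluT2+ IPs, replicate 1 had the lowest *Gabra4*, 55.8 CPM, with the next at 146 (ratio 0.735). *Gabra4* was lowest in replicate 4 of HD cerebellar Gad2+ IPs, at 12.5 CPM where the next had 27.6 (ratio 0.670). The lowest *Gabra4* value of HD PV+ IPs was 39.1 CPM in replicate 2, and the nearest other was 74.1 (ratio 0.754). In control cerebellar total RNA of the vGluT2 line, replicate 4 had the highest *Gabra5*, 5.46 CPM, with the next at 1.14 (ratio 0.866). *Gabra5* was highest in replicate 5 of HD cerebellar vGluT2+ IPs, at 4.58 CPM where the next had 1.61 (ratio 0.721). The highest *Gabra6* value of control PV+ IPs was 26.1 CPM in replicate 2, and the nearest other was 3.11 (ratio 0.883). In HD cerebral Gad2+ IPs, replicate 2 had the highest *Gabra6*, 3.74 CPM, with the next at 0.841 (ratio 0.775). *Gabra6* was highest in replicate 3 of HD PV+ IPs, at 83.0 CPM where the next had 0.406 (ratio 0.996). The highest *Gabra6* value of HD SST+ IPs was 12.5 CPM in replicate 2, and the nearest other was 0.465 (ratio 0.981). In control cerebellar Gad2+ IPs, replicate 2 had the lowest *Gabrb2*, 31.0 CPM, with the next at 81.3 (ratio 0.865). *Gabrb2* was highest in replicate 4 of control cerebral total RNA of the SST line, at 26.4 CPM where the next had 11.9 (ratio 0.850).

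No test of a difference in HD effect between populations or regions passed for a subunit (0 of 28).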

How the results depend on the processing

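The count of genes that passed between HD and control mice was 4, 5, 0, 1, 2, 285, 96 and 3544 in cerebral Gad2+, PV+, SST+ and vGluT2+ IPs, cerebellar Gad2+ and vGluT2+ IPs, cerebral and cerebellar total RNA. By DESeq2 the first 7 were 75, 42, 2, 25, 22, 665 and 213. With DESeq2 size factors or without a filter on low counts, cerebral vGluT2+ IPs had 0 and 0 and cerebellar Gad2+ IPs 1 and 1. *Xist* as a covariate gave 1 in PV+, 0 in cerebral vGluT2+, and 0 and 178 in Gad2+ and vGluT2+ IPs of the cerebellum. With all IPs in one fit the 6 IPs except SST+ had 20, 0, 5, 13 and 548. The exon-length slope as a covariate gave 9 in cerebral Gad2+, 3 in cerebral vGluT2+ and 698 in cerebellar vGluT2+ IPs, and 561 in cerebral total RNA (1 subunit) and 62 in cerebellar total RNA (0 of the 3 subunits). Cerebellar Gad2+ IPs had 0 without the re-sequenced library. Cerebral total RNA had 0, 0, 0 and 0 in the Gad2, PV, SST and vGluT2 line alone and 21 without the SST line. Cerebellar total RNA had 0 (0 subunits) in the Gad2 line and 7565 (6 subunits) in the vGluT2 line.

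With each library left out in turn, the counts ran 3 to 12, 0 to 4, 0 to 1, 0 to 1, 0 to 3, 149 to 255, 62 to 145 and 96 to 7408 in the same order, and 1 to 6 subunits passed in cerebellar total RNA. Among control IPs the subunits that passed ran 2 to 4 for vGluT2+ against Gad2+ (2 with all, 25.6 to 35.0% of all genes), 3 to 5 for PV+ against Gad2+ (5, 53.2 to 57.7%) and 3 to 5 for PV+ against vGluT2+ IPs (3, 59.4 to 66.1%).

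Control and HD libraries carry the same replicate numbers, and whether these are pairs is not stated. Deviations from the group means correlated between same-numbered libraries at -0.851 to 0.965. Outside cerebral total RNA of the Gad2 line no group had all of them above 0.1, so that elsewhere the number was not treated as a pair. The replicate block gave 9, 0, 1, 0, 0, 108, 151 and 9 genes in the order above, 1 subunit in cerebral total RNA (*Gabrd*, -0.36, adjusted p = 0.0496) and 0 in cerebellar total RNA. The block of the Gad2 line alone gave 143 genes in cerebral total RNA (593 with the slope too), and 24 with only that line in the fit, where *Gabra2* passed. It changed no other call of a subunit.

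Of the subunits in cerebral Gad2+ IPs against total RNA, 3 passed with total RNA of the same line (46.9% of all genes) in place of 5 (68%). Between HD libraries 2 passed for PV+ against Gad2+ (51% of all genes) and 1 for SST+ against vGluT2+ IPs (39.2%). DESeq2 passed 5 for PV+ against vGluT2+ IPs (65% of all genes), and its size factors 5 for SST+ against vGluT2+ IPs (54.2%). Differences of HD effects passed in 15, 0, 0 and 46 genes (cerebellar vGluT2+ minus Gad2+, cerebral Gad2+ minus vGluT2+, and cerebellum minus cerebrum in Gad2+ and vGluT2+ IPs), by DESeq2 in 73, 1, 21 and 126, and with the exon-length slope in 72 for cerebellar vGluT2+ minus Gad2+ IPs and 4 and 77 between regions in Gad2+ and vGluT2+ IPs. The mean *Gabra6* share of the 5 listed alpha subunits in control cerebellar vGluT2+ IPs moved from 98.4 to 96.7% per kilobase of coding sequence. With the exon-length slope as a covariate 10 values that passed with or without it changed sign. Against total RNA these were *Gabra2* (-0.39), *Gabra4* (-0.70) and *Gabrb2* (-0.37) in PV+ IPs and *Gabra4* (-0.82), *Gabrb2* (-1.35) and *Gabrd* (+0.27) in SST+ IPs. Between controls they were *Gabrb2* in PV+ against Gad2+ IPs (-0.45), *Gabra3* (-0.33) and *Gabrb2* (-1.07) in PV+ against vGluT2+ IPs, and *Gabra2* in cerebellar against cerebral total RNA (-0.90). Of the 1211 alternative values of a subunit in HD against control, 29 no longer passed and 14 newly passed. Sex and litter are not in the labels, the mice are few per group, and an IP also carries RNA of unmarked cells. Shares over all subunits of the family are not given. Levels per kilobase use gene lengths, not transcripts. Protein was not measured. The cause of these differences was not tested.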

Other observations

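The cerebral libraries with most *Gabra6* also had transcripts of the granule cell genes *Cbln3* and *Fat2*. In cerebral total RNA the 4 libraries with most *Gabra6* had 17.3, 64.1 and 18.6 CPM of *Gabra6*, *Cbln3* and *Fat2* (HD, PV line, replicate 2), 15.0, 52.9 and 21.2 (HD, Gad2 line, replicate 2), 11.5, 52.8 and 14.7 (control, Gad2 line, replicate 2) and 9.54, 47.0 and 17.7 (HD, SST line, replicate 2). Among cerebral vGluT2+ IPs, HD replicates 1 and 4 had 8.44, 31.0 and 8.63 and 6.17, 26.5 and 7.45. How these transcripts came into cerebral libraries was not tested.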
